A study of Arabidopsis thaliana with 6 samples.

Results

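The genes examined, 10 of the 37869 in the gene table and 36 of its 76209 transcripts, were picked by locus as the proteins that make and use small interfering RNAs (siRNAs) in Arabidopsis thaliana. They are the Dicer-like genes DCL2, DCL3 and DCL4, the Argonaute genes AGO2, AGO3 and AGO4, the RNA-dependent RNA polymerase genes RDR1, RDR2 and RDR6, and SGS3. All 10 averaged at least 1 TPM (a share of the library's transcripts, corrected for transcript length) and entered the test. They were measured in shoots of 3-week-old Col-0 seedlings grown in vitro in long days under control conditions, in 3 wild-type libraries and 3 libraries of the mutant sme1-1, whose sample labels write smeb-1. SME1 encodes SmE, a protein of the Sm ring of the spliceosome. The sample titles write KO for the mutant, but the labels do not describe the lesion. Nor do they say whether each library is from separate plants, so p-values measure only how these libraries vary, possibly for technical reasons.

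In siRNA silencing an RNA-dependent RNA polymerase copies single-stranded RNA into double-stranded RNA, a Dicer-like enzyme cuts this into short duplexes, and an Argonaute protein carries 1 strand to matching RNA. DCL4 and DCL2 make the siRNAs that act on messenger RNAs, on viruses and from trans-acting siRNA (TAS) loci, for which RDR6 and its partner SGS3 supply the template. RDR2, DCL3 and AGO4 form the nuclear branch that directs DNA methylation. RDR1 and AGO2 are known from defence against viruses, and RDR1 responds to salicylic acid.

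AGO2 and AGO3 lie next to each other on chromosome 1, 2723 bases apart in the RefSeq annotation of TAIR10.1, and share 46 of the 3512 31-base words of the AGO2 exons. RefSeq's note on the miR403 gene names both as targets of that microRNA. The mature miR403-3p (chr2:19415154-19415174, plus strand, TAIR10.1, capitals mark the seed, bases 2 to 8) and the best match to its reverse complement in each gene are shown because these are the members with the largest log2 changes on the deposited values. In the sites, at chr1:11185223-11185243 in AGO2 and chr1:11192399-11192419 in AGO3, both on the plus strand, capitals mark bases that do not pair.
miR403-3p: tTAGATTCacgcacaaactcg
AGO2 site: Ggagtttgtgcgtgaatctaa
AGO3 site: GATgtttgtgcgtgaatctaa
Both sites lie in the 3' untranslated region. In AGO2 20 of the 21 bases pair and in AGO3 18, while the best match in any transcript of the other members pairs at 12 to 15 bases. The level of the MIR403 precursor was not analysed here.

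In sme1 shoots 8 of the 10 genes rose and none fell (limma on log2(TPM + 1), Benjamini-Hochberg adjusted p under 0.05), against 67.3% of all 20100 genes tested called in either direction, and in the same 8 the libraries of the genotypes did not overlap. AGO3 entered the test only through sme1, since its wild-type mean is under the filter of 1 TPM, so its call is no support; of the other 9 genes 7 were called higher, as were 44.9% of the 18589 genes with both means at or above the filter. The changes ran from 1.31-fold for RDR2 to 2.25-fold for AGO2 and 2.96-fold for AGO3, as ratios of mean TPM. RDR6 and DCL3 were called in neither direction. Among all genes 47.3% were called higher and 20.0% lower, and 73.5% had groups that did not overlap, 51.0% with sme1 higher, so the count is read against a transcriptome in which most genes moved. In bulk shoots fewer cells of a type and less RNA per cell cannot be told apart. The median log2 change was 0.45 over the 10 genes and 0.22 over all genes tested. Over genes with both means at or above the filter it was 0.43 for the 9 members and 0.18 for all.

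**Figure D1:**
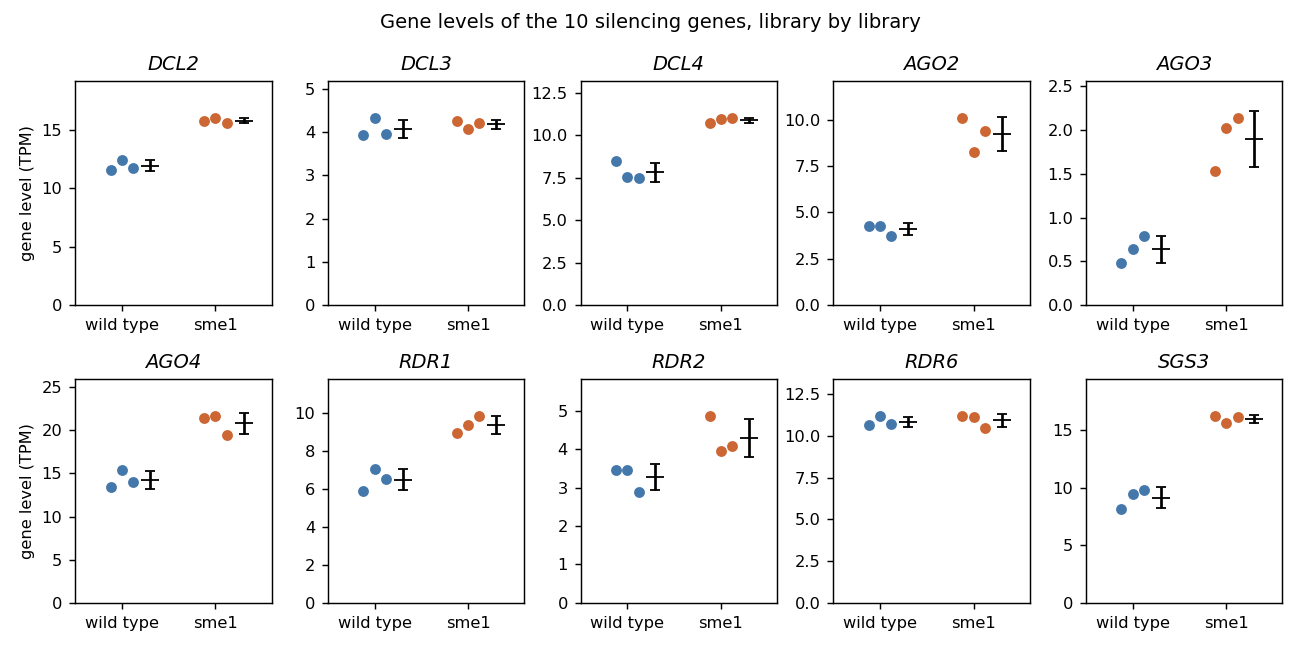
Gene level in TPM (y axis, from 0) of the 10 silencing genes in each wild-type (blue) and sme1 (orange) library, with the mean and SD of 3 libraries beside them. For RDR6 and DCL3 the groups overlap; for the other 8 genes every sme1 library lies above every wild-type library.

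Checks of the libraries were as follows. SME1 itself was at 73.9 to 76.9 TPM in wild type, against 29.7 to 36.1 TPM in sme1, so no library went against its label. The 5 leaf markers summed to 20564 to 21055 TPM in wild type, against 20167 to 22807 TPM in sme1, a sum carried by RBCS1A, which rose from 10335 ± 576.4 to 12381 ± 825.4 TPM. Of the 5, 3 fell: RCA from 4248 ± 109.9 to 3236 ± 307.2 TPM, CA1 from 1652 ± 46.4 to 1255 ± 155.9 TPM and LHCB1.3 from 195.3 ± 37.0 to 130.1 ± 10.8 TPM. The 9 root markers summed to 127.2 to 203.7 TPM in wild type, against 271.5 to 521.4 TPM in sme1, and all 7 that were tested were called higher, but 6 of them, all but PYK10 (153.0 ± 40.8 to 341.1 ± 114.9 TPM), entered the test only through sme1. WOX5, CASP1, IRT1 and RSL4, among the root markers, were each at or under 1.64 TPM in every wild-type library. Of 5 floral organ markers 2 were tested and 1 was called higher, SEP3, at 0.763 ± 0.320 and 1.78 ± 0.405 TPM, which also entered only through sme1. These markers moved in the same libraries as the silencing genes, and their part in the results below was not tested.

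The scale of the values matters for these genes. TPM are shares of a library, and the median gene was higher in sme1 by 0.22 on the log2 scale. Median-of-ratios scaling centres the libraries on the typical gene. With it 6 members were called higher and 2 lower (31.8% and 35.5% of all genes tested), while quantile normalization left 3 higher and 2 lower (30.4% and 36.3%). The 6 include AGO3, which entered only through sme1 and is no support, and the 3 do not. AGO2, AGO4 and SGS3 rose under all 3 scalings. RDR6 and DCL3 were called lower under both alternatives. RDR1 and DCL4, like AGO3, kept their rise after median-of-ratios scaling only, and DCL2 and RDR2 were called higher only on the deposited values. With median-of-ratios scaling DCL4, RDR1 and DCL3 passed narrowly (limma adjusted p = 0.0460, 0.0463 and 0.0481).

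**Figure D2:**
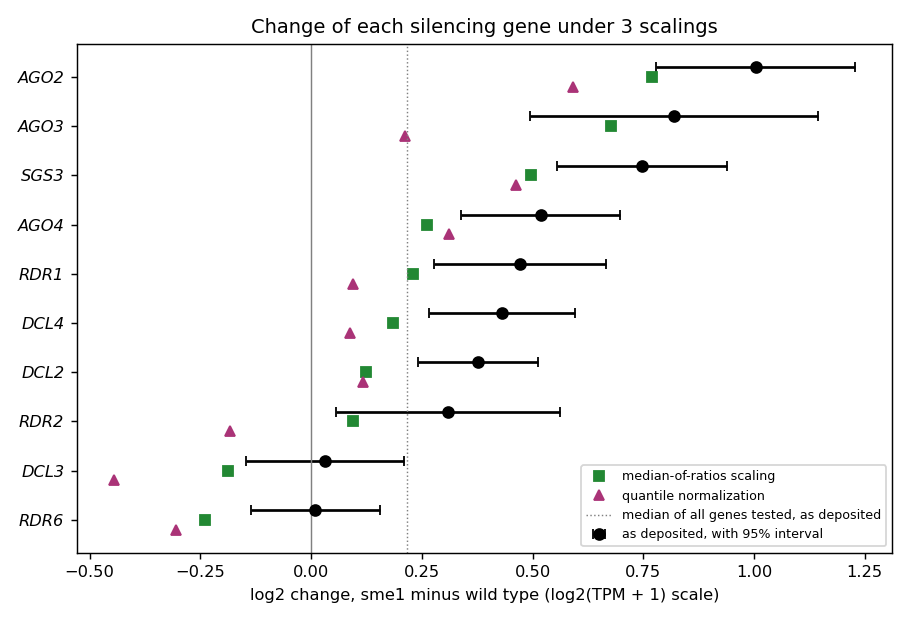
Log2 change of each silencing gene, sme1 minus wild type (x axis, log2(TPM + 1) scale), as deposited with its 95% interval (black), scaled by median of ratios (green) and with quantile normalization (purple). The dotted line is the median of all genes tested, 0.22; AGO2, SGS3 and AGO4 stay above 0 under each scaling, while DCL3 and RDR6 move below it.

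The Dicer-like genes divided. DCL2, which makes secondary and antiviral siRNAs, was at 11.6, 12.4 and 11.7 TPM in wild type, against 15.8, 16.0 and 15.6 TPM in sme1. The log2 change of 0.38 (standard error 0.06, limma adjusted p = 0.00114) was 0.12 once scaled by median of ratios (limma adjusted p = 0.0950). DCL4, the main enzyme for trans-acting siRNAs, was at 8.46, 7.56 and 7.46 TPM in wild type, against 10.7, 11.0 and 11.0 TPM in sme1. It changed by 0.43 in log2 (standard error 0.07, limma adjusted p = 0.00149). All sme1 libraries lay above all wild-type libraries for both genes, and the ratio of DCL2 to DCL4, which no single factor per library can move, was 1.53 ± 0.142 in wild type and 1.45 ± 0.0278 in sme1 (SD, n = 3), with overlapping groups.

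DCL3, the Dicer of the DNA methylation branch, did not share that rise. Its libraries were at 3.93, 4.31 and 3.95 TPM in wild type, against 4.26, 4.07 and 4.20 TPM in sme1, so the groups overlap. The log2 change was 0.03 with a 95% interval from -0.15 to 0.21 (limma adjusted p = 0.728). Set against DCL4 within each library, DCL3 lost ground: the ratio of DCL4 to DCL3 was 1.93 ± 0.202 in wild type and 2.61 ± 0.0915 in sme1, without overlap.

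Of the 3 Argonaute members AGO2, the antiviral Argonaute, had the largest log2 change with a pseudocount of 1; with 0.1 it was 1.15 for AGO2 and 1.44 for AGO3. It was at 4.27, 4.29 and 3.74 TPM in wild type, against 10.1, 8.26 and 9.39 TPM in sme1. It changed by 1.00 in log2 (standard error 0.09, limma adjusted p = 0.000152), and between 0.95 and 1.07 when any 1 library was left out. AGO3, its neighbour and nearest relative among the members, was the lowest of the 10, at 0.484, 0.643 and 0.795 TPM in wild type, against 1.53, 2.03 and 2.13 TPM in sme1 (log2 change 0.82, standard error 0.14, limma adjusted p = 0.00174, and 0.00223 when no gene is filtered out). Its libraries did not overlap either, but after quantile normalization the change was 0.21 and no longer passed (limma adjusted p = 0.203).

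The ratio of AGO2 to AGO3 was 6.73 ± 2.06 in wild type and 5.01 ± 1.35 in sme1, with overlapping groups, so the neighbours were not told apart in how far they moved. AGO4, the Argonaute of the DNA methylation branch, was the most abundant member in both genotypes. It stood at 13.4, 15.3 and 14.0 TPM in wild type, against 21.4, 21.6 and 19.4 TPM in sme1, again without overlap (log2 change 0.52, standard error 0.07, limma adjusted p = 0.000956).

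Of the RNA-dependent RNA polymerases RDR1 rose. It was at 5.91, 7.04 and 6.53 TPM in wild type, against 8.93, 9.36 and 9.84 TPM in sme1 (log2 change 0.47, standard error 0.08, limma adjusted p = 0.00205). Its exons share 192 bases with AT1G14780 on the opposite strand, which was at 0.692 to 1.25 TPM in wild type, against 1.36 to 1.99 TPM in sme1. The library kit is stranded, but the sources used here do not say whether quantification used the strand.

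RDR2, the polymerase of the DNA methylation branch, was at 3.47, 3.47 and 2.88 TPM in wild type, against 4.86, 3.95 and 4.08 TPM in sme1. The groups did not overlap. The log2 change of 0.31 (standard error 0.11) passed narrowly (limma adjusted p = 0.0371), and it passed in only 1 of the 6 fits that leave out a library, that without sme1 replicate 2. The adjusted p reached 0.103 without wild-type replicate 3 and 0.0970 without sme1 replicate 1, and lay at 0.0547, 0.0627 and 0.0669 without wild-type replicate 1, wild-type replicate 2 and sme1 replicate 3 (limma).

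RDR6 and SGS3, partners in the same step, differed. RDR6 was at 10.7, 11.2 and 10.7 TPM in wild type, against 11.2, 11.1 and 10.5 TPM in sme1. The groups overlap, and the log2 change of 0.01 has a 95% interval from -0.14 to 0.15 (limma adjusted p = 0.896). SGS3, which binds and protects the RNA that RDR6 copies, was at 8.10, 9.46 and 9.82 TPM in wild type, against 16.2, 15.6 and 16.1 TPM in sme1, far from overlap. It changed by 0.75 in log2 (standard error 0.08, limma adjusted p = 0.000263).

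Within a library the balance of these partners does not depend on a scaling factor. The ratio of SGS3 to RDR6 was 0.760, 0.846 and 0.918 in wild type and 1.45, 1.40 and 1.54 in sme1, so SGS3 passed from below RDR6 to above it in every library. AGO2 stood at 0.378 ± 0.0259 of RDR6 in wild type and 0.846 ± 0.0911 in sme1, and RDR1 at 0.598 ± 0.0385 and 0.860 ± 0.0737, neither with overlap. Such ratios show unequal change and not which of the 2 genes moved.

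The summed level of the 10 genes was 70.2, 75.8 and 71.6 TPM in wild type, against 104.9, 102.9 and 102.2 TPM in sme1. As a share of that sum, RDR6 took 15.2%, 14.8% and 14.9% in wild type and 10.7%, 10.8% and 10.2% in sme1, and DCL3 went from 5.61% ± 0.0886 to 4.04% ± 0.0817. AGO2 went the other way, from 5.65% ± 0.426 to 8.94% ± 0.820, and so did SGS3, from 12.6% ± 1.10 to 15.4% ± 0.302, and AGO3, from 0.883% ± 0.213 to 1.84% ± 0.332. DCL2, although called higher in level, went from 16.4% ± 0.0517 to 15.3% ± 0.234 of the sum, also without overlap. The shares of AGO4, DCL4, RDR1 and RDR2 overlapped between genotypes.

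**Figure D3:**
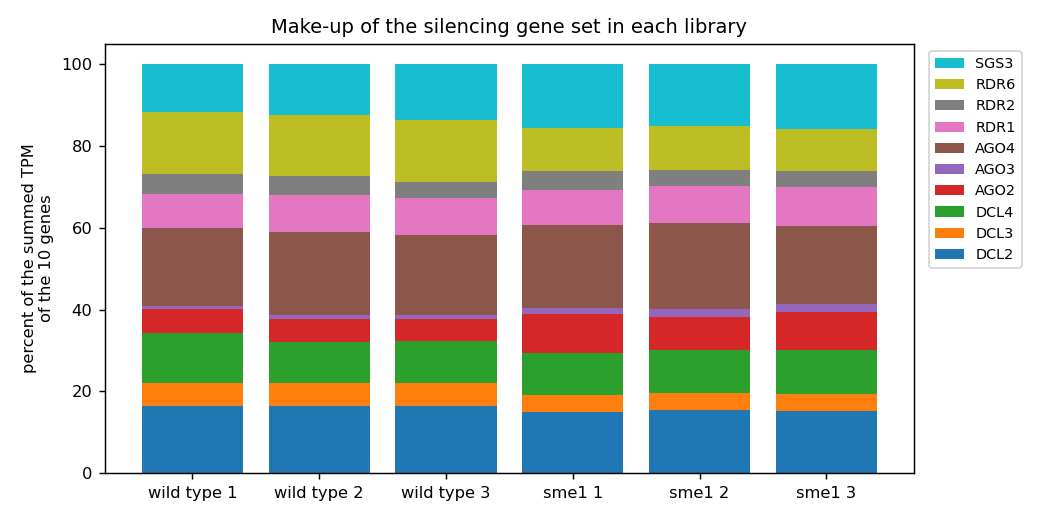
Percent of the summed TPM of the 10 silencing genes that each gene takes (y axis) in each of the 6 libraries (x axis). RDR6 shrinks from between 14.8% and 15.2% to between 10.2% and 10.8% while AGO2 grows from 5.65% to 8.94%; AGO4 keeps about the same share, 19.6% and 20.1%.

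The order of the levels changed with these shifts. In wild type it ran AGO4, DCL2, RDR6, SGS3, DCL4, RDR1, AGO2, DCL3, RDR2, AGO3, and only SGS3 with DCL4, and AGO2 with DCL3, overlapped as neighbours. In sme1 it ran AGO4, SGS3, DCL2, RDR6, DCL4, RDR1, AGO2, RDR2, DCL3, AGO3. There SGS3 overlapped with DCL2, RDR6 with DCL4, RDR1 with AGO2, and RDR2 with DCL3. SGS3 thus went from rank 4 to rank 2.

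The deposited annotation holds 36 transcripts of these genes, and 19 had a mean of at least 1 TPM; RDR1 and RDR2 have 1 transcript each, and none of AGO3 passed the filter. Of the 19, 7 rose and none fell, against 29.1% and 14.5% of all 39381 transcripts tested (43.6% in either direction). TCONS_00006754 of AGO2 entered only through sme1, as did a transcript of DCL4 that was not called. Of the other 17 transcripts 6 were called higher (35.3%), as were 26.3% of the 34010 transcripts with both means at or above the filter. The 7 were both transcripts of AGO2, both tested transcripts of SGS3, and the main transcripts of AGO4, DCL2 and RDR1. After median-of-ratios scaling 2 of the 19 were called higher, and without sme1 replicate 3 the count was 4. The shares of all transcripts called in these fits are not given here.

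The main transcript of SGS3, AT5G23570.1, was at 5.83, 6.83 and 7.12 TPM in wild type, against 12.7, 9.59 and 12.0 TPM in sme1 libraries (limma adjusted p = 0.00555). AT5G23570.4, which keeps a 102-base intron that AT5G23570.1 removes, was at 2.27, 2.63 and 2.70 TPM in wild type, against 3.42, 6.00 and 3.98 TPM in sme1 libraries (limma adjusted p = 0.0444). The 2 forms rose side by side. The main transcript of AGO4, AT2G27040.1, held 12.7, 15.3 and 13.7 TPM in wild type, against 19.3, 19.3 and 18.2 TPM in sme1 libraries (limma adjusted p = 0.0101).

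For DCL2 most of the level came from AT3G03300.4. It was at 6.80, 7.11 and 7.05 TPM in wild type, against 8.73, 9.61 and 8.28 TPM in sme1 libraries (limma adjusted p = 0.0453). This transcript shares no base with AT3G03305, a gene on the same strand that shares 515 exonic bases with AT3G03300.1 and was at 5.34 to 6.16 TPM in wild type, against 7.58 to 10.2 TPM in sme1.

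**Figure D4:**
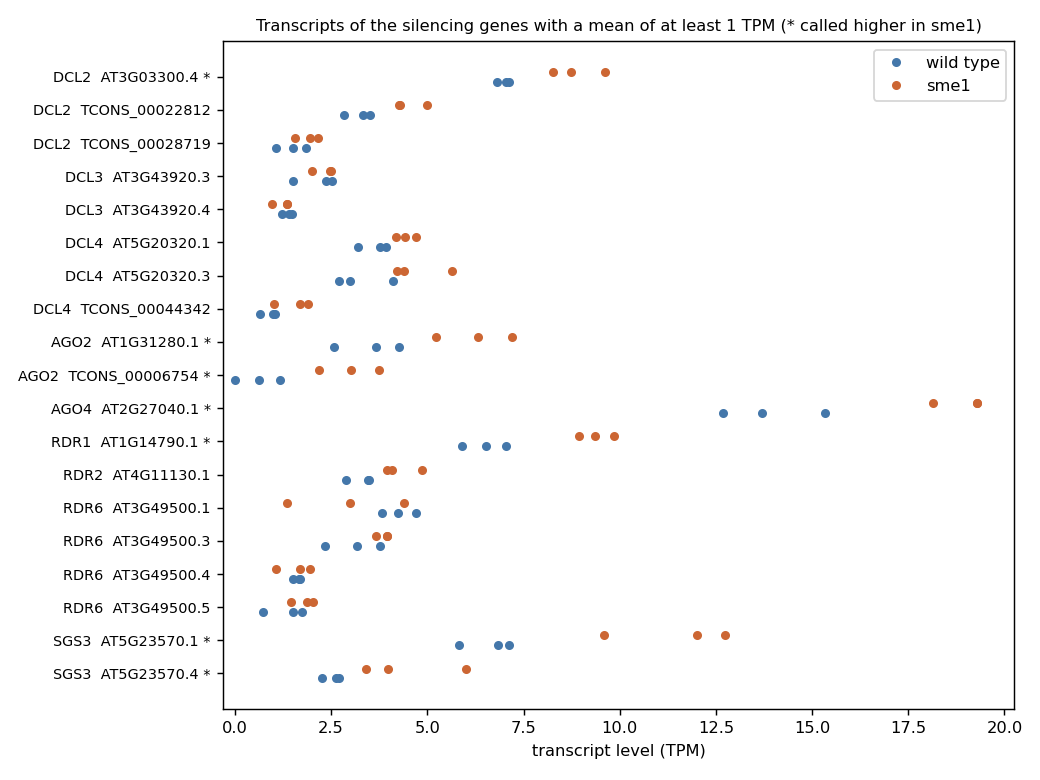
Level in TPM (x axis) of the 19 transcripts of the silencing genes that average 1 TPM or more, in each wild-type (blue) and sme1 (orange) library; an asterisk marks the 7 called higher in sme1. The transcripts of AGO2 and SGS3 separate by genotype, while AT3G49500.1 of RDR6 spreads from 1.36 to 4.41 TPM within sme1.

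SmE is a splicing protein, so the forms of each gene were compared as well. The transcripts of a gene were tested for unequal change with limma diffSplice in the 6 members with 2 or more transcripts past the filter. None was called and none had an unadjusted p under 0.05, while 23.2% of the 9382 genes tested were called. The smallest adjusted p was that of RDR6 (limma diffSplice adjusted p = 0.153), and without sme1 replicate 1 it was called (adjusted p = 0.0239).

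Splicing events were then built from the annotation, and 17 of the 25 events of these genes could be tested: 10 retained introns, 5 alternative 3' sites and 2 alternative 5' sites, in 7 genes. None was called (limma), and none had an unadjusted p under 0.05. Only 2.63% of the 25000 events in all genes were called, 3.15% of retained introns, 1.27% of alternative 3' sites and 2.37% of alternative 5' sites, so a count of 0 among 17 is near the background. Several intervals are wide, and changes in these events were not detectable here rather than absent.

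The event with the smallest p was an intron of AGO4 inside the coding span, chr2:11537933-11538026 on the minus strand of TAIR10.1, 94 bases, printed because its length is not a multiple of 3; capitals mark its first and last 2 bases.
AGO4 intron: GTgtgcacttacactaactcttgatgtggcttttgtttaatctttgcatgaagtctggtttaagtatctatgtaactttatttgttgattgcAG
The transcript that keeps it took 5.18%, 0.00% and 1.95% of the transcripts compared in wild type and 6.49%, 9.74% and 5.22% in sme1. The groups came close without overlapping. The log2 ratio of kept to removed was higher by 1.84 with a 95% interval from -0.06 to 3.75 (limma adjusted p = 0.235).

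AGO2 and DCL3 each have a pair of 3' splice sites 3 bases apart inside the coding span, at which the same letters recur. Shown are chr1:11182389-11182415 for AGO2 and chr3:15753754-15753780 for DCL3, plus strand, with the AG that ends either intron in capitals.
AGO2: tttgaaatgtgacAGtAGctgaagtta
DCL3: ctttttttttggcAGtAGttatgaatt
In AGO2 the first AG is used by AT1G31280.1 and the second by the assembled transcript TCONS_00006754. The first site took 100.0%, 85.1% and 68.6% in wild type and 62.8%, 63.3% and 76.6% in sme1, with overlapping groups (limma adjusted p = 0.344). TCONS_00006754 itself was at 0.000678, 0.638 and 1.17 TPM in wild type, under the filter on average, against 3.75, 3.03 and 2.19 TPM in sme1 (limma adjusted p = 0.0120). AT1G31280.1 rose from 4.27, 3.65 and 2.57 TPM to 6.33, 5.23 and 7.19 TPM (limma adjusted p = 0.0216). In DCL3 the first site took 63.5% ± 2.86 in wild type and 66.9% ± 6.38 in sme1 (SD, n = 3; limma adjusted p = 0.694).

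RDR6 varies in an intron of its leader before the coding span, with a pair of 5' sites 23 bases apart, a pair of 3' sites 16 bases apart, and a form, AT3G49500.3, that keeps the intron. The windows chr3:18353439-18353468 (5' sites, capitals mark the GT that begins either intron) and chr3:18353207-18353236 (3' sites, capitals mark the AG that ends either intron) are on the minus strand.
RDR6 5' sites: gtGTaagtctccagaacctcactgtGTaag
RDR6 3' sites: ttctgtttAGtatgtttctttttcAGgaga
Against AT3G49500.1, which removes the longest form of the intron, the retained form took 35.4%, 44.6% and 45.4% in wild type and 45.4%, 56.9% and 74.4% in sme1. The sme1 libraries spread widely, and the change did not pass (log2 ratio 1.00, 95% interval -0.09 to 2.1, limma adjusted p = 0.258). Against the forms with a shorter intron the log2 ratio of retention changed by 0.41 (AT3G49500.4), -0.19 (AT3G49500.2) and -0.14 (AT3G49500.5), none of which passed, so the direction was not shared. AT3G49500.1 was at 4.25, 4.70 and 3.82 TPM in wild type, against 4.41, 2.99 and 1.36 TPM in sme1, while the total of the gene hardly varied.

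The rest of the pathway was read from lists of 82 loci, 77 of them in the gene table and 66 tested; 38 rose and 6 fell, against the 47.3% and 20.0% of all genes. Scaled by median of ratios, 19 were higher and 19 lower (31.8% and 35.5% of all genes), and quantile normalization gave 20 and 21 (30.4% and 36.3%). AGO7, TAS3B, TAS4, MYB75 and MYB90 entered the test only through sme1 and are counted as higher under each scaling. Their calls are no support, and the counts higher are raised by them. The leaf and root markers given above moved in the same libraries. Of 25 tested factors of RNA-directed DNA methylation, 13 rose and 3 fell (52.0% and 12.0%), with a median log2 change of 0.24. Among all genes with both means at or above the filter, as in all 25 factors, 44.9% rose and 20.9% fell. The median of those genes was 0.18, and that of all genes tested 0.22, so the list lay near the background. The counts were 4 and 8 when scaled by median of ratios and 4 and 9 with quantile normalization, against the rescaled shares of all genes given above. FDM2, an RNA-binding factor of the branch, rose from 4.34 ± 0.453 to 10.1 ± 1.07 TPM (SD, n = 3 each). CLSY1, a remodeller that works with RNA polymerase IV, rose from 1.82 ± 0.0666 to 4.23 ± 0.347 TPM, and its partner SHH1 from 11.7 ± 0.164 to 18.3 ± 1.42 TPM. NRPD1, the largest subunit of that polymerase, rose from 1.68 ± 0.137 to 3.13 ± 0.217 TPM. Their limma adjusted p-values lay between 0.000179 and 0.00111, and NRPD1 alone of these 4 was no longer called with quantile normalization (0.09 in log2, limma adjusted p = 0.397). The 3 that fell were NRPE5, the remodeller gene DRD1 and FDM1.

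Among 20 tested factors of post-transcriptional silencing and small RNA processing 9 were called higher, near the 47.3% of all genes, and 1, DCL1, fell, with a median of 0.16. The counts were 5 and 6 when scaled by median of ratios (31.8% and 35.5% of all genes) and 4 and 8 with quantile normalization (30.4% and 36.3%). AGO7 is among those higher under each scaling. Without AGO7, 8 of 19 were called higher on the deposited values (42.1%), against 44.9% of genes with both means at or above the filter. AGO7, the Argonaute that starts siRNA production from TAS3, was at 0.565 ± 0.123 TPM in wild type, against 3.18 ± 0.177 TPM in sme1. DRB4, the double-stranded RNA-binding partner of DCL4, rose from 11.6 ± 0.572 to 23.0 ± 2.44 TPM. The small RNA methyltransferase gene HEN1 rose from 4.10 ± 0.203 to 8.12 ± 0.960 TPM and AGO10 from 18.1 ± 1.04 to 26.0 ± 0.517 TPM. For DRB4, HEN1 and AGO10 limma adjusted p-values lay between 0.000170 and 0.000446. The call of AGO7 is no support, since AGO7 entered only through sme1. Thus DRB4 rose with its enzyme DCL4, the ratio of their means being 1.98 and 1.39 in sme1 over wild type.

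Of 7 RNA decay factors that compete with silencing for aberrant RNA, 4 rose and 1 fell, near the shares of all genes on the deposited values (47.3% and 20.0%). Their median of 0.22 was that of all genes. After either rescaling 1 was higher and 3 lower, against 31.8% and 35.5% of all genes by median of ratios and 30.4% and 36.3% by quantiles. FRY1, whose phosphatase keeps the XRN exonucleases active, rose from 30.0 ± 4.95 to 65.4 ± 1.37 TPM (limma adjusted p = 0.000208), and the nuclear exonuclease gene XRN3 fell from 38.3 ± 0.813 to 29.2 ± 0.243 TPM (limma adjusted p = 0.000523). The exosome cofactor genes VIP3 (13.8 ± 0.195 to 16.7 ± 0.561 TPM) and SKI2 (10.4 ± 0.646 to 12.4 ± 0.126 TPM) rose on the deposited values only; after median-of-ratios scaling their log2 changes were 0.0036 and -0.0067.

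The TAS loci, whose transcripts RDR6, SGS3 and DCL4 turn into siRNAs, were called higher in all 7 tested cases, against 47.3% of all genes, and in 4 scaled by median of ratios (31.8%) and 6 by quantiles (30.4%). TAS4, at 0.233 ± 0.101 and 5.08 ± 1.96 TPM in wild type and sme1, and TAS3B, at 0.463 ± 0.0953 and 2.49 ± 0.439 TPM, entered only through sme1. The other 5 were called higher on the deposited values, against 44.9% of genes with both means at or above the filter. Their median was 0.51 (0.65 with all 7), against 0.18 for those genes. The 4 called after median-of-ratios scaling were TAS4, TAS3B, TAS1A and TAS1C, so of the other 5 only TAS1A and TAS1C kept their call. TAS4 and TAS3B are also among the 6 called with quantile normalization. TAS1C rose from 10.9 ± 0.540 to 19.1 ± 2.37 TPM and TAS1A from 10.8 ± 1.57 to 17.5 ± 1.32 TPM (limma adjusted p = 0.000553 and 0.00184). The siRNAs themselves were not measured in these libraries.

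Of 6 tested genes that trans-acting siRNAs are known to target, 5 were called higher, against 47.3% of all genes. The count was 5 with 1 lower when scaled by median of ratios (31.8% and 35.5% of all genes) and 5 with 0 lower under quantile normalization (30.4% and 36.3%). MYB75 and MYB90 entered only through sme1 and are in the count of 5 under each scaling. Of the other 4 genes 3 were called higher on the deposited values, as were 44.9% of genes with both means at or above the filter. The median of these 4 was 1.04 (1.07 with all 6). ARF4, a TAS3 target and auxin response factor, rose from 11.5 ± 0.145 to 24.9 ± 0.801 TPM and HTT2, a TAS1 target, from 9.49 ± 0.376 to 21.4 ± 1.73 TPM. The TAS4 targets are activators of anthocyanin synthesis: MYB75 was at 0.362, 1.08 and 1.02 TPM in wild type, against 85.9, 39.0 and 44.6 TPM in sme1, and MYB90 was listed at 0 in wild type and reached 4.81, 3.07 and 3.34 TPM in the mutant. For ARF4 and HTT2 the limma adjusted p-values were 2.46e-05 and 5.11e-05. The calls of MYB75 and MYB90 are no support, since both genes entered only through sme1. ROS1, a DNA demethylase gene that reports RNA-directed DNA methylation, fell from 23.8 ± 1.36 to 20.2 ± 0.527 TPM (limma adjusted p = 0.0163), but lost its call without sme1 replicate 3 (adjusted p = 0.0584) or wild-type replicate 2 (adjusted p = 0.0619). SDC and FWA, which that pathway keeps silent, stayed at or under 0.177 TPM in every library.

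**Figure D5:**
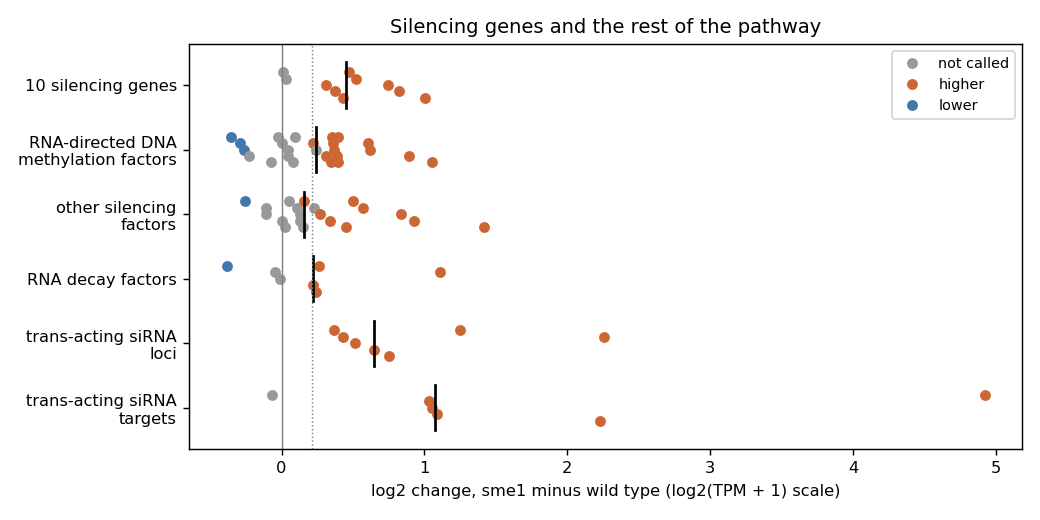
Log2 change, sme1 minus wild type (x axis, log2(TPM + 1) scale), of each tested gene in the silencing set and in 5 further lists, coloured by call; black bars are list medians and the dotted line the median of all genes tested, 0.22. The medians are 0.45 for the 10 silencing genes, 0.24 for the DNA methylation factors, 0.16 for the other silencing factors, 0.22 for the decay factors, 0.65 for the trans-acting siRNA loci and 1.07 for their targets; AGO3, AGO7, TAS3B, TAS4, MYB75 and MYB90 passed the filter only through sme1.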

How the data were processed

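RNA of 6 shoot samples was made into libraries with a stranded mRNA kit and sequenced as 150 bp paired ends, per the labels' protocols. The authors deposited TPM per gene and per transcript; STAR 2.5.2b and kallisto 0.43.0 are listed, without a role, per the submitters' processing notes. Summed transcript TPM matched the gene TPM to within 0.01 for every gene. The deposited annotation (exon positions, another kind of value) holds 59448 Araport11 and 16761 scallop transcripts and names no build; 99.44% of its 141522 nuclear introns have GT or GC and AG ends on TAIR10.1, from which sequences were read (RefSeq annotation). TPM keep no depth, so the depth is unknown and no counting interval is given.

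Features averaging 1 TPM or more were tested with limma 3.58.1 (R 4.3.3, trended empirical Bayes) on log2(TPM + 1), which understates changes of low genes, with no covariate and Benjamini-Hochberg adjustment over all features at 0.05. The filter is on the mean of all 6 libraries, so 1303 genes passed with a wild-type mean under 1 TPM and 208 with an sme1 mean under it; members and list genes of that kind are marked. Usage was tested with diffSplice. An event compares the summed TPM of transcripts with it (R) and with the stated alternative (S), as log2((R + 0.1)/(S + 0.1)), where R + S averages 2 TPM or more and the mean share lies within 0.02 to 0.98; a retained intron is an intron inside an exon of another transcript. These rest on TPM apportioned to transcripts, not on junction reads. The procedures were run on simulated data, in which the spread of the event ratios was set in advance. That run does not show what power the fits had for the events of these genes. Members and lists were chosen with earlier results of these data known; the lists come from general knowledge and were matched on locus. All members, and up to 4 genes per pathway list with the smallest adjusted p, were named by rule; NRPE5, DRD1, FDM1, DCL1, SDC, FWA, the individual tissue markers and genes under other observations were named after their values were seen.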

Additional observations from a re-analysis of the deposited data

How the results depend on the processing

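Of the 10 genes 8 were called on the deposited TPM and 5 after quantile normalization; leaving out 1 library gave 7 or 8. DCL3 changed sign after median-of-ratios scaling (-0.19) and quantile normalization (-0.44), RDR6 likewise (-0.24 and -0.31; between -0.0062 and 0.039 with a library left out), RDR2 after quantile normalization (-0.18) and SKI2 under both (-0.0067 and -0.061); the cause was not tested beyond the shift of the median gene. Of the members' transcripts 7 were called, 2 after median-of-ratios scaling and 4 to 6 with a library left out. Usage was called for no member, for 1 without a filter on low values (SGS3, adjusted p = 0.0456) and for 0 or 1 with a library left out. No event of a member was called under any alternative, but among all events the calls went from 658 to 3367 with a pseudocount of 1, 1016 at a mean of at least 5 TPM, and between 0 and 64 with a library left out, so those fits had little power. Genes called for usage numbered 2176, 3880 without a filter, and 1398 and 1367 without sme1 replicates 2 and 3. Pathway genes called higher went from 38 to 19 and 20 and those lower from 6 to 19 and 21 after median-of-ratios scaling and quantile normalization (33 to 36, and 3 to 7, with a library left out). All genes called went from 9505 higher and 4024 lower to 6374 and 7113, and 6116 and 7293. Correlations of deviations were small for same-numbered libraries (0.0168, 0.0562 and 0.0322), but lay above those of all other pairs (-0.0454 to 0.0050). A pairing by number is therefore neither shown nor excluded. With the replicate block 8 members, 5 transcripts, no usage and no event were called, 37 pathway genes higher and 6 lower, and 0 events among all genes. Depth limits the low members, AGO3 above all, to an unknown degree.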

Other observations

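The genes above belong to families whose other members set the scale of the whole; these were picked after their values were seen. The 10 Argonaute genes together went from 115.7 ± 4.71 to 134.4 ± 2.07 TPM (SD, n = 3 each). AGO1, the main carrier of microRNAs, held most of that, at 77.8, 79.1 and 71.0 TPM in wild type, against 70.6, 68.1 and 72.6 TPM in sme1, with overlapping groups (limma adjusted p = 0.162). AGO5, AGO8 and AGO9, known mainly from reproductive tissue, were at or under 0.436 TPM in every library. AGO6, the relative of AGO4, was at 1.78 ± 0.369 and 2.27 ± 0.138 TPM and was not called (limma adjusted p = 0.118).

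DCL1, the Dicer for microRNAs, was at 15.7, 17.0 and 14.2 TPM in wild type, against 13.3, 12.5 and 12.9 TPM in sme1, a fall (limma adjusted p = 0.0252), so that DCL2 stood below DCL1 in each wild-type library and above it in each sme1 library. Of the RDR genes without a settled role, RDR3 rose from 1.71 ± 0.140 to 2.43 ± 0.249 TPM (limma adjusted p = 0.0217), and RDR4 (1.32 ± 0.117 and 1.58 ± 0.186 TPM) and RDR5 (4.16 ± 0.281 and 4.56 ± 0.446 TPM) were not called.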
